A study of Mus musculus with 12 samples.

Results

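The subunits of oxidative phosphorylation were followed in bulk RNA from the cerebellum of mice with spinocerebellar ataxia type 1 (SCA1) and of wild-type (WT) mice, with and without wheel running. Members were all protein-coding genes with certain starts of the mouse symbol. For complex I these were Ndufa, Ndufb, Ndufc, Ndufs or Ndufv followed by a digit, which leaves out Ndufab1 and the Ndufaf genes. Complex II was Sdha to Sdhd, complex III Uqcr, complex IV Cox4 to Cox8 and complex V Atp5. Protein-coding genes with the mitochondrial prefix (mt-) were members too. There were 102 such gene IDs among the 56941 in each count table, of which 89 were nuclear and 13 lay on mitochondrial DNA. Ndufa4 was counted with complex IV, where its protein belongs. A level is given in CPM, a gene's count scaled to a library of fixed size with edgeR's normalization factors.

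Each of the 4 groups held 3 mice aged 16 weeks. The WT sedentary and SCA1 sedentary mice were housed in groups, and the WT exercise and SCA1 exercise mice lived alone with a running wheel for 12 weeks from an age of 4 weeks, so wheel and solo housing cannot be told apart. According to the paper, wheels were taken out before the behavioral tests, and tissue was taken after the last test. Sedentary mice went through the same tests, among them balance beam and rotarod. The RNA is thus not from mice still running against mice without motor testing. The SCA1 mice were heterozygous (Het) for a knock-in allele of Atxn1, an expanded CAG repeat in the mouse's own gene that is expressed wherever Atxn1 is and not in 1 cell type. Mice were C57BL/6J littermates of both sexes, perfused with saline, and the libraries were depleted of ribosomal RNA, stranded and paired-end. Mice are named here by the number their labels give. Each p-value of the main fit rested on a spread between mice within groups that all 4 groups shared. It therefore also drew on mice outside the groups compared. With 3 mice a group, an exact two-sided permutation test of 3 against 3 cannot go below 0.1.

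Oxidative phosphorylation makes most of a neuron's ATP. Complexes I and II pass electrons from NADH and succinate to ubiquinone, complex III passes them to cytochrome c, and complex IV passes them to oxygen. Complexes I, III and IV pump protons across the inner mitochondrial membrane, and complex V, the ATP synthase, lets them return. Complexes I, III, IV and V are each built from subunits of both genomes, and complex II is nuclear only. Mitochondrial DNA is transcribed from both of its strands as long RNAs that are cut into separate messages, whereas every nuclear subunit has its own promoter.

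The libraries held 20556802 to 32127508 read pairs assigned to genes on the annotated strand, and 39.3% to 58.7% of read pairs fell on no gene. SCA1 sedentary mouse 16 and SCA1 exercise mouse 55 stood apart, with 6.38% and 6.33% of read pairs mapping to several places against 2.08% to 3.46% in the other libraries. Mouse 16 also had the lowest share of read pairs without a gene. Chromosome Y genes gave 206.1 to 262.5 CPM in 8 libraries and 0 to 0.403 CPM in WT exercise mouse 201, SCA1 sedentary mouse 194 and SCA1 exercise mice 55 and 122, so no WT sedentary library was of that kind. According to the methods, 2 RNA samples of lower integrity had their fragmentation and PCR adjusted, and which libraries these were was not used here. Cerebellar markers were abundant: the summed CPM of 6 Purkinje cell genes lay between 6483 and 7289 in WT sedentary mice and between 3859 and 5270 in SCA1 sedentary mice. In bulk RNA, fewer cells of a type and less RNA per cell cannot be told apart.

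Of the 13 mitochondrial genes, 7 could be counted. A piece of mitochondrial DNA lies in the nuclear genome at chr1:24650616-24655269 (GRCm39, minus strand, 4654 bases). It covers mt-Co2, mt-Co3, mt-Atp6, mt-Atp8, mt-Nd3 and mt-Nd4l over at least 99% of their length at 98% identity or more, and read pairs that match both places were assigned to neither. The summed count of these 6 genes was 52 to 150 per library, although mt-Co1 upstream of them had 4578 to 8643 CPM. The sequence of mt-Atp8, the short ATP synthase subunit that overlaps mt-Atp6, is shown because it is the same, base for base, at chrM:7766-7969 on the plus strand and at chr1:24653690-24653893 on the minus strand, 204 of 204 bases. The 43 capitals are the stretch that also belongs to mt-Atp6.
mt-Atp8 and its chromosome 1 copy: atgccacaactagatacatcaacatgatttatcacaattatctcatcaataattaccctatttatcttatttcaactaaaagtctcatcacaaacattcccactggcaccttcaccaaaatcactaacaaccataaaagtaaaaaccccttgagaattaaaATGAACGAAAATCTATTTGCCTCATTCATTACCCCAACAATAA
The copy ends inside mt-Nd4, a membrane subunit of complex I. The next 2 sequences cross that edge, from chrM:10983-11102 on the plus strand and from chr1:24650556-24650675 on the minus strand, with capitals where both carry the same base. All of the first 60 bases match and 16 of the next 60 do, which shows where reads become assignable.
mt-Nd4 across the edge: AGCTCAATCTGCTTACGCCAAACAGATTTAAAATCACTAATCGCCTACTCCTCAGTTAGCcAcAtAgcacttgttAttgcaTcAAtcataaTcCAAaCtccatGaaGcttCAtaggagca
chromosome 1 across the edge: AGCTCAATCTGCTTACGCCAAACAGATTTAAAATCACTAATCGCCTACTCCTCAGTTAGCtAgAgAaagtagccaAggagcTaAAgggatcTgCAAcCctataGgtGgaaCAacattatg
The copy covers 63.6% of mt-Nd4 and 31.3% of mt-Co1, and none of mt-Nd1, mt-Nd2, mt-Nd5, mt-Nd6 or mt-Cytb. Levels of the 6 covered genes are therefore not levels of the mitochondrial messages.

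Promoters of nuclear subunits have been studied for sites of NRF1, ETS-family factors and YY1, and 66 of the 82 nuclear members that passed the filter on low counts had a promoter sequence in the RefSeq table used (GRCm38.p6, 250 bases before to 50 after the start). The NRF1 core TGCGCA stood in 18 of the 66 (27.3%) on either strand, against 8.06% of 27025 promoters of all genes. The ETS core CCGGAAG stood in 15 (22.7%, against 9.12%) and the YY1 core AAGATGG in 10 (15.2%, against 6.48%). These last 2 cores can overlap. At least 1 of the 3 cores stood in 35 of the 66 (53.0%, against 21.0% of all promoters). The 66 were limited to genes that passed the filter and the 27025 were not. The 2 sets are therefore unlike, and the excess cannot be called particular to these members. The promoters of 2 genes are given because their genes were among the leading nuclear members of the comparison of WT exercise with WT sedentary mice. The 150 bases before the start of Cox5b, at chr1:36691337-36691486 on the plus strand, hold the NRF1 core in capitals, which begins at position -52. The 150 bases before the start of Ndufs8, at chr19:3912775-3912924 on the minus strand, hold none of the 3 cores. The wider window of Ndufs8 does hold an ETS core, at position 16 after the start on the opposite strand, and is counted above.
Cox5b promoter: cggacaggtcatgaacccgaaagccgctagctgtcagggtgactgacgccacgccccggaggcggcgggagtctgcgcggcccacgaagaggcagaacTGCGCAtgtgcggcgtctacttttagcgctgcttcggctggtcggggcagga
Ndufs8 promoter: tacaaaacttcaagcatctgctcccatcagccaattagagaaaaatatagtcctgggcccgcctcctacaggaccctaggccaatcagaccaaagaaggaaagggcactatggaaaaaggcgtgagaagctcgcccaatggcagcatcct

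Levels were compared between members per kilobase of canonical transcript. Apart from mt-Nd6, the countable mitochondrial messages were the most abundant members. mt-Co1, the catalytic subunit of complex IV, averaged 4178 CPM per kilobase over the 12 libraries, or 6078 when only the bases outside the copy were counted as its length. mt-Cytb, the heme-bearing core of complex III, averaged 1916 CPM per kilobase. Among the complex I membrane subunits, mt-Nd1 averaged 1759, mt-Nd2 1252 and mt-Nd5 1056 CPM per kilobase, and mt-Nd4 678, or 1861 outside the copy. mt-Nd6, the 1 protein-coding gene on the other strand of mitochondrial DNA, was the lowest countable one at 407 CPM per kilobase, below the highest nuclear member. Nuclear medians lay lower, at 33.9 CPM per kilobase for complex I, 27.4 for complex II, 41.1 for complex III, 73.3 for complex IV and 47.2 for complex V. The highest nuclear members were Atp5f1b (454.5 CPM per kilobase), the catalytic beta subunit of ATP synthase, and Cox4i1 (283.8), the main form of the largest nuclear complex IV subunit. The ranges of the complexes overlapped widely.

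**Figure D1:**
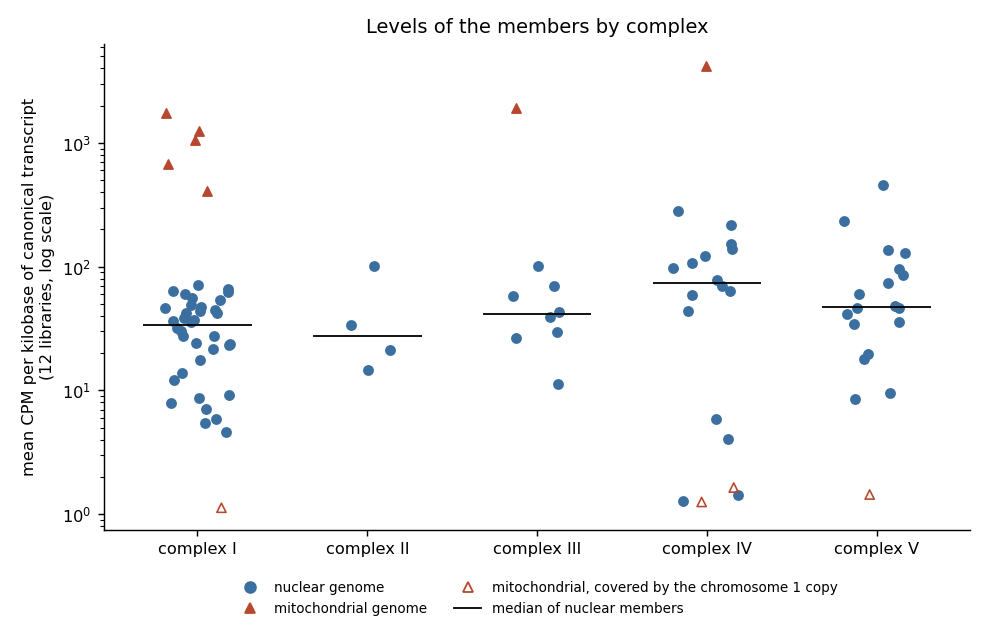
Mean CPM per kilobase of canonical transcript over 12 libraries (log axis) of the 93 members that passed the filter, by complex. Circles are nuclear and triangles mitochondrial members, open triangles are genes covered by the chromosome 1 copy, and bars are medians of nuclear members, from 27.4 for complex II to 73.3 for complex IV.

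Nuclear subunits made as tissue or condition-specific forms were low or absent. Cox4i2, a form of Cox4 known from lung and low oxygen, averaged 1.28 CPM per kilobase against 283.8 for Cox4i1. Cox7a1, the heart and muscle form of Cox7a, averaged 5.83, Cox6b2, the testis form of Cox6b, 4.05, and Ndufa4l2 1.42 CPM per kilobase. Cox6a2 and Cox8b, the muscle forms of Cox6a and Cox8, reached at most 1.21 and 0.476 CPM in any library and did not pass the filter. In all, 93 of the 102 members passed, and the other 9 were Cox6a2, Cox7b2, Cox8b, Cox8c, a gene named Cox5b-ps, Ndufb11b, a second ID for Atp5po, mt-Atp8 and mt-Nd4l. Among the nuclear members, near-identical copies elsewhere in the genome covered 91.0% of the transcript of Ndufs5, 89.2% of Atp5mc2, 86.7% of Uqcrb, 85.8% of Atp5mc1, 74.1% of Cox7c, 65.1% of Atp5mg, 55.6% of Cox5b, 52.2% of Ndufs3, 50.5% of Atp5pd and 49.8% of Ndufb4, so the levels of these genes are uncertain.

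The first comparison asked how sedentary SCA1 mice differ from sedentary WT mice. Mitochondrial messages were lower in the SCA1 mice, by a median of 0.45 on the log2 scale over the 7 countable genes, while the median nuclear member differed by -0.08 and the median of all 20341 genes tested by 0.02. edgeR's quasi-likelihood test called none of the 93 members tested, and 0.0344% of all genes, with a call set at a p under 0.05 after Benjamini-Hochberg adjustment together with a log2 fold change beyond 0.5 in either direction. DESeq2 called 2 of the 99 members it gave a p, mt-Nd1 and mt-Nd2, and 0.578% of all genes. With the share of read pairs without a gene as a covariate, edgeR called the same 2 members, a share of 2.15% that equals the 2.15% of all genes called in that fit.

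mt-Nd1, which forms part of the path by which complex I reaches ubiquinone, measured 2322, 1950 and 1844 CPM in WT sedentary mice 116, 117 and 192. In SCA1 sedentary mice 16, 194 and 195 it measured 1235, 1135 and 1545 CPM. Every SCA1 sedentary mouse lay below every WT sedentary mouse, and the mean was 36.0% lower. The log2 fold change was -0.64 (SE 0.14), with an unadjusted p of 0.000693 and an adjusted p of 0.162 in edgeR, and an adjusted p of 0.00305 in DESeq2. mt-Nd2, a proton-pumping subunit of complex I, measured 1732, 1556 and 1285 CPM in the WT sedentary mice. In the SCA1 sedentary mice it measured 782, 853 and 1209 CPM. The groups did not overlap, although the highest SCA1 mouse and the lowest WT mouse were close. Its log2 fold change was -0.69 (SE 0.17), with an adjusted p of 0.214 in edgeR and 0.0125 in DESeq2.

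The other countable mitochondrial genes had smaller differences. mt-Co1 averaged 7492 ± 1087 CPM (SD, n = 3) in WT sedentary and 5344 ± 668 CPM in SCA1 sedentary mice, a log2 fold change of -0.49 (SE 0.15). mt-Nd4 averaged 1026 ± 113 and 750 ± 118 CPM (-0.45, SE 0.14), and mt-Cytb 2420 ± 210 and 1819 ± 221 CPM (-0.41, SE 0.13). These 3 genes did not overlap between the groups. mt-Nd5, a proton-pumping subunit of complex I, averaged 2036 ± 276 and 1620 ± 237 CPM (-0.33, SE 0.15), and its groups overlapped.

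mt-Nd6 went the other way. It measured 220, 183 and 168 CPM in WT sedentary mice and 405, 213 and 164 CPM in SCA1 sedentary mice 16, 194 and 195. Mouse 16 was highest of all and mouse 195 below every WT mouse, so the groups overlapped widely. The log2 fold change of 0.45 was -0.02 without mouse 16. The 4 tested genes covered by the copy gave -1.15 (mt-Nd3), -1.08 (mt-Co3), -0.95 (mt-Atp6) and -0.30 (mt-Co2), from counts per library of 2 to 19, 17 to 61, 13 to 35 and 16 to 35.

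**Figure D2:**
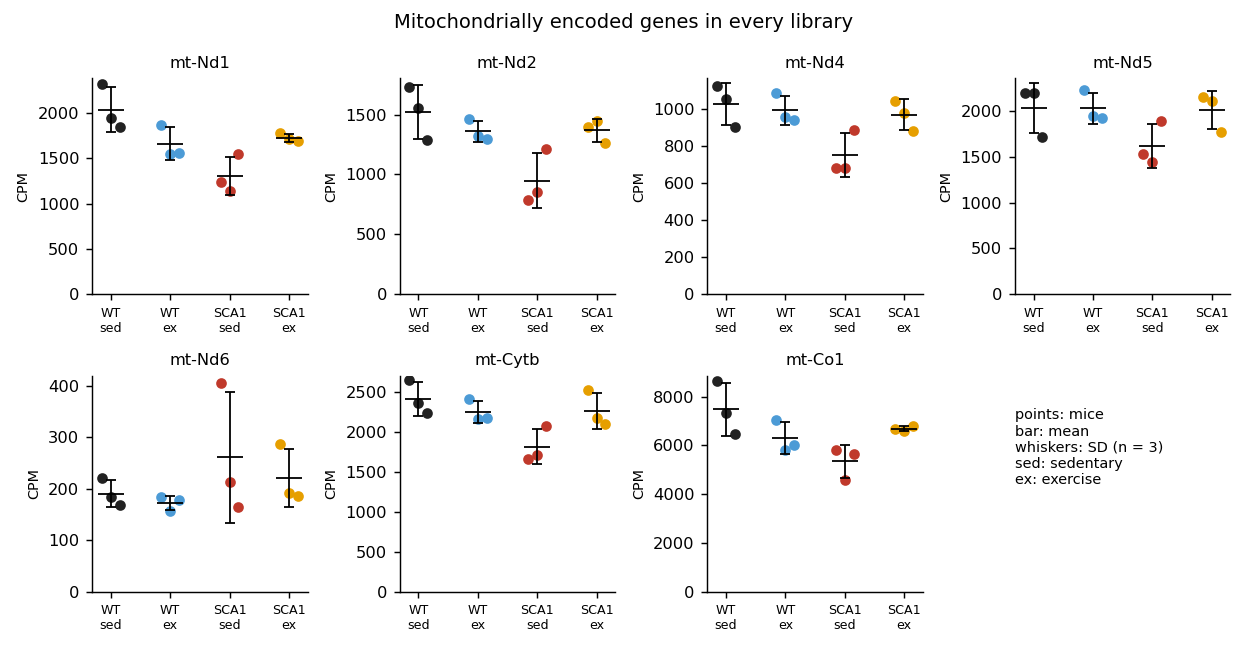
CPM of the 7 mitochondrial genes outside the copy in each of 12 libraries, with the mean and SD of each group (n = 3). The SCA1 sedentary mice lie below the WT sedentary mice for mt-Nd1, mt-Nd2, mt-Nd4, mt-Cytb and mt-Co1, and mouse 16 stands above all others for mt-Nd6.

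Among the 93 members, 12 were lower and 0 higher at an unadjusted p under 0.05, where 4.55% and 5.55% of all genes were, respectively. Groups did not overlap for 11 members that were lower and for 0 that were higher, against 5.76% and 5.60% of all genes. The 12 comprised 8 mitochondrial genes, 2 of them covered by the copy, and 4 nuclear ones. Nuclear Ndufb4, an accessory subunit of complex I that has copies, averaged 25.1 ± 3.80 and 18.02 ± 1.64 CPM (-0.48, SE 0.16), and Ndufs4, an accessory subunit of complex I mutated in Leigh syndrome, 41.5 ± 3.30 and 33.7 ± 3.70 CPM (-0.30, SE 0.11). Ndufc1 (-0.33) and Atp5pf (-0.26) overlapped between the groups. The count of lower members was 49 without mice 16 and 55, 43 without mouse 16 alone and 21 with the share of read pairs without a gene as a covariate. It was 8 with the other groups left out. The share of all genes at that p was not counted in these fits, so these counts cannot be read as particular to the members.

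Nuclear members by complex had medians of -0.07 for complex I, -0.01 for complex II, -0.10 for complex III, -0.14 for complex IV and -0.08 for complex V in this comparison. The nuclear sum of 89 members was 7081, 5788 and 6130 CPM in WT sedentary mice 116, 117 and 192 and 7916, 5581 and 5031 CPM in SCA1 sedentary mice 16, 194 and 195. The 3 SCA1 mice thus spanned both sides of the WT mice, and without mice 16 and 55 the nuclear median was -0.25. The mitochondrial sum divided by the nuclear sum was 2.67, 2.88 and 2.39 in the WT sedentary mice and 1.53, 1.90 and 2.67 in the SCA1 sedentary mice, which overlapped through mouse 195.

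Cerebellar neuron markers also had lower medians in this comparison. All 6 Purkinje cell markers were lower in SCA1 sedentary mice (median log2 fold change -0.81), each at an unadjusted p under 0.05, and all 6 granule cell markers had a negative fold change (median -0.52), with 5 of the 6 at that p. The summed CPM of the granule cell markers was 3097 to 3761 in WT sedentary and 1845 to 3162 in SCA1 sedentary mice. No marker of either list was at 0. Of 5 astrocyte and Bergmann glia markers, 2 were lower at that p (median -0.35), and of 6 choroid plexus markers 2 were higher (median 1.56). The choroid plexus sum was 19.5 to 422 CPM in WT sedentary and 27.1 to 1175 CPM in SCA1 sedentary mice. The part of these cells in the mitochondrial result was not tested.

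Genes of the same pathway outside the rule were counted too. Of 53 assembly factors that passed the filter, 1 was lower and 0 higher at an unadjusted p under 0.05 (median -0.09). That gene was Cox20, which helps mature mt-Co2 (12.1 and 8.71 CPM on average). Of 13 genes of mitochondrial transcription, RNA stability and replication, 2 were lower and 0 higher (median -0.21). These were Tefm, the elongation factor of mitochondrial RNA polymerase (4.51 and 3.22 CPM, -0.49), and Slirp, a partner of Lrpprc in stabilising mitochondrial messages (13.7 and 9.81 CPM, -0.49). Tfam (35.0 and 30.3 CPM, -0.21), Polrmt (-0.12) and Lrpprc (0.07) did not pass at that p. Of 14 genes of the tricarboxylic acid cycle, 0 passed in either direction (median -0.02).

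The second comparison asked what wheel running in solo housing went with in WT mice. Nuclear members were lower in WT exercise than in WT sedentary mice by a median of 0.31 on the log2 scale, with 80 of the 82 tested below 0, where the median of all genes was 0.00. The 2 others were Cox6b2 and Ndufb2. The 7 countable mitochondrial genes had a median of -0.14. Neither edgeR nor DESeq2 called a member, and they called 0% and 0.179% of all genes.

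Groups did not overlap for 55 of the 93 members that were lower and for 0 that were higher, against 11.1% and 10.1% of all genes. At an unadjusted p under 0.05, 19 members were lower and 0 higher in edgeR, against 1.91% and 2.78% of all genes. DESeq2 gave 21 lower members. The count of 19 moved with the libraries and the design, to 3 without WT sedentary mouse 116, 4 without WT exercise mouse 197, 5 without WT exercise mouse 201, 29 without WT sedentary mouse 117, 32 without SCA1 sedentary mouse 195 and 51 without SCA1 sedentary mouse 16. It was 64 without mice 16 and 55 and 7 with chromosome Y expression as a covariate. With the 2 WT groups alone it was 67, where 8.02% of all genes were lower at that p. For the other fits that share was not counted, so their counts cannot be set against all genes.

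Atp5mj, a small membrane subunit of ATP synthase, measured 31.3, 26.4 and 29.9 CPM in WT sedentary mice 116, 117 and 192 and 20.9, 17.9 and 19.2 CPM in WT exercise mice 121, 197 and 201. The groups were well apart. The log2 fold change was -0.60 (SE 0.20), with an unadjusted p of 0.00980 and an adjusted p of 0.855 in edgeR. Ndufs8, an iron-sulfur core subunit of complex I whose promoter is shown above, measured 37.8, 28.5 and 32.6 CPM in the sedentary and 23.5, 23.7 and 21.9 CPM in the exercise mice (-0.52, SE 0.18, adjusted p = 0.928 in edgeR). Cox5b, a zinc-binding nuclear subunit of complex IV, measured 63.9, 54.8 and 59.7 CPM in the sedentary and 48.0, 41.0 and 43.8 CPM in the exercise mice (-0.43, SE 0.16, adjusted p = 0.958). For both genes each exercise mouse lay below each sedentary mouse. Atp5mj, Ndufs8 and Cox5b were picked among members without overlap, so that their groups lay apart was set by the choice. With the 2 WT groups alone, edgeR called 0.777% of all genes and 2 of 93 members, Atp5mj (-0.59, adjusted p = 0.0184) and Ndufa2, an accessory subunit of complex I (-0.54, adjusted p = 0.0444).

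By complex, the nuclear medians of WT exercise against WT sedentary mice were -0.29 for complex I, -0.18 for complex II, -0.36 for complex III, -0.36 for complex IV and -0.29 for complex V. Groups did not overlap for 20 of the 36 nuclear members of complex I, 2 of the 4 of complex II, all 8 of complex III, 11 of the 16 of complex IV and 13 of the 18 of complex V, all of them lower, where 11.1% of all genes were lower without overlap. Core subunits differed in how far the 2 groups lay apart. Ndufs1, an iron-sulfur core subunit of complex I, averaged 158 ± 3.78 CPM (SD, n = 3) in WT sedentary and 148 ± 8.29 CPM in WT exercise mice, and these overlapped. Sdha, the flavin subunit of complex II, averaged 304 ± 16.98 and 284 ± 11.7 CPM and also overlapped. Uqcrc1, a core subunit of complex III, averaged 172 ± 11.5 and 143 ± 7.23 CPM, without overlap. Cox4i1 averaged 229 ± 32.2 and 175 ± 13.0 CPM and Atp5f1b 916 ± 88.1 and 758 ± 51.0 CPM, both without overlap.

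**Figure D3:**
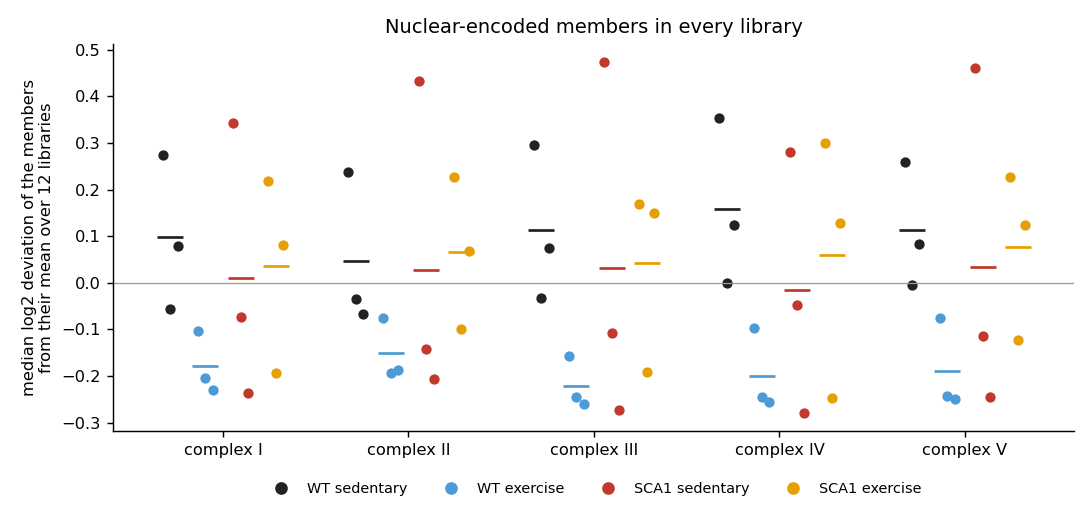
Median over the nuclear members of each complex of the log2 deviation from their mean over 12 libraries, with 1 point a mouse and a bar at the group mean. The WT exercise mice lie low in every complex, and the SCA1 sedentary mice spread most, from mouse 16 at the top to mouse 195 at the bottom.

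The order of the nuclear sums within groups was set beside a property of the libraries. Within each of the 4 groups, the order of the 3 mice by nuclear sum was exactly the reverse of their order by the share of read pairs without a gene. The same held in 4 of 4 groups for the nuclear sums of complexes I, II, III and V, in 3 of 4 for complex IV, and in 0 of 4 for the mitochondrial sum. Even so, WT sedentary mouse 116, WT exercise mouse 121 and SCA1 exercise mouse 55 had the highest mitochondrial sum of their groups. Each of them had the lowest share of read pairs without a gene in its group. Of the 82 single nuclear members, 17 had that reversed order in all 4 groups and 36 in 3. How many of all genes tested had that order was not counted, so it cannot be called particular to the members. The share without a gene was 46.0% to 51.8% in WT sedentary and 50.9% to 56.8% in WT exercise mice. With that share as a covariate the nuclear median of this comparison was -0.13 in place of -0.31, and the count of lower members was 15. Its part in the result was not tested beyond this.

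**Figure D4:**
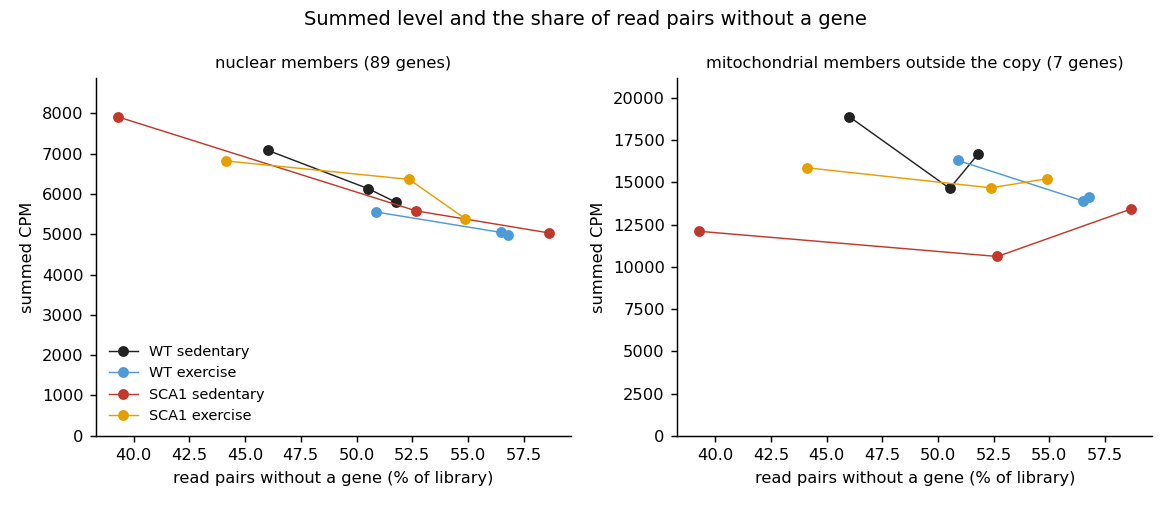
Summed CPM of the 89 nuclear members and of the 7 countable mitochondrial members in 12 libraries against the percent of read pairs without a gene. Lines join the mice of 1 group, and every line on the nuclear side runs downward throughout. No mitochondrial line does so throughout. In WT sedentary, WT exercise and SCA1 exercise mice it still starts at its highest point.

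Markers of other cells were also compared between these groups. The summed CPM of 6 choroid plexus markers was 19.5 to 422 in WT sedentary and 832 to 1931 in WT exercise mice. Of these, 5 were higher at an unadjusted p under 0.05 in edgeR. For 5 oligodendrocyte markers the sums were 2998 to 3868 and 2507 to 2647, and 0 passed at that p (median log2 fold change -0.44). No marker of either list was at 0. Purkinje cell sums were 6483 to 7289 and 6829 to 7247. Of the 6 Purkinje cell markers, 5 were below 0 (median -0.11) and 0 passed at that p. Itpr1, the most abundant of them, was above 0 (0.10). All 5 erythrocyte markers were below 0 (median -0.79), 1 of them at that p. The part of these cells in the lower nuclear members was not tested. Of the genes outside the rule, 47 of 53 assembly factors were below 0 (median -0.18), 3 of them at an unadjusted p under 0.05. Of the 13 genes of mitochondrial transcription, RNA stability and replication, 12 were below 0 (median -0.14), and 1 passed at that p, Tefm (4.51 and 3.02 CPM, -0.58). All 14 genes of the tricarboxylic acid cycle were below 0 (median -0.17) and 0 passed at that p. Cyc1, the cytochrome of complex III, averaged 103 and 77.7 CPM (-0.41) and Cycs, cytochrome c itself, 41.4 and 32.3 CPM (-0.36), the former at that p.

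The third comparison asked what exercise went with in SCA1 mice. The 7 countable mitochondrial genes had a median of 0.32 on the log2 scale in SCA1 exercise against SCA1 sedentary mice, with 6 above 0 and mt-Nd6 below it, and the nuclear median was 0.01, beside -0.01 over all genes. No member was called by edgeR, where 0% of all genes were, or by DESeq2, where 0.00285% were. At an unadjusted p under 0.05, 6 members were higher and 0 lower, against 1.19% and 0.978% of all genes, and all 6 were mitochondrial, 2 of them covered by the copy. Groups did not overlap for 7 higher and 0 lower members, against 2.43% and 2.07% of all genes. DESeq2 gave 8 higher members at that p. The count of 6 was 1 without SCA1 sedentary mouse 194, 4 without SCA1 exercise mouse 55, 22 without SCA1 sedentary mouse 16 and 9 without mice 16 and 55. It was 2 with the 2 SCA1 groups alone and 14 with the share of read pairs without a gene as a covariate. Beside these counts no share of all genes was taken.

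mt-Nd2 measured 1397, 1449 and 1260 CPM in SCA1 exercise mice 55, 122 and 198, against 782, 853 and 1209 CPM in the sedentary mice. The highest sedentary mouse, 195, lay just below the lowest exercise mouse. The log2 fold change was 0.53 (SE 0.17), with an unadjusted p of 0.00757 and an adjusted p of 0.999 in edgeR. mt-Nd1 measured 1778, 1714 and 1690 CPM in the exercise mice, a log2 fold change of 0.40 (SE 0.14, adjusted p = 0.999 in edgeR), and its 3 exercise mice lay close together and above the sedentary ones. mt-Nd4 (0.37) and mt-Cytb (0.32) also had an unadjusted p under 0.05, and mt-Nd4 overlapped between the groups. mt-Nd6 measured 286, 191 and 185 CPM in the exercise mice and its log2 fold change of -0.24 was 0.23 without SCA1 sedentary mouse 16. This comparison shares its SCA1 sedentary mice with the first one, so the 2 sets of fold changes are not independent.

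Nuclear members of SCA1 exercise and SCA1 sedentary mice overlapped for every gene tested. The nuclear sum was 6820, 5382 and 6360 CPM in exercise mice 55, 122 and 198, within the span of the sedentary mice. Without SCA1 sedentary mouse 16 the nuclear median was 0.23, and without mice 16 and 55 it was 0.15. Purkinje cell markers had a median of 0.43, with 4 of 6 higher at an unadjusted p under 0.05, and their sum was 5236 to 6460 CPM in the exercise mice. Their part in the mitochondrial result was not tested.

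The fourth comparison set SCA1 exercise against WT exercise mice. Nuclear members were higher in the SCA1 mice by a median of 0.27, with 77 of 82 above 0, beside 0.00 for all genes, and the countable mitochondrial genes had a median of 0.01. Calls among the members numbered 0 in edgeR, which called 0% of all genes, and 0 in DESeq2, which called 0.00854%. Groups did not overlap for 17 higher and 0 lower members, against 7.32% and 6.92% of all genes. At an unadjusted p under 0.05, 3 members were higher and 0 lower, against 1.45% and 1.48%, and DESeq2 also gave 3 higher. These were Cox6c, Cox7c and Ndufb1. Cox6c, a nuclear subunit of complex IV, measured 35.2, 34.4 and 32.9 CPM in WT exercise and 43.5, 37.0 and 44.5 CPM in SCA1 exercise mice (0.29, SE 0.11, adjusted p = 0.960 in edgeR). Its groups did not overlap, which was a condition for picking it. The count of 3 was 0 without SCA1 exercise mouse 55 or 198, 1 without WT exercise mouse 197 or 201, 5 without WT exercise mouse 121, 8 without SCA1 sedentary mouse 195, 22 without SCA1 exercise mouse 122, 30 without SCA1 sedentary mouse 16 and 11 without mice 16 and 55. It was 28 with the 2 exercise groups alone and 8 over genes with at least 1 count. Shares of all genes at that p were not counted in these fits. The nuclear median was 0.18 without mice 16 and 55 and 0.12 with the share of read pairs without a gene as a covariate. Among the marker lists, the medians were 0.54 for the 5 oligodendrocyte genes (0 at an unadjusted p under 0.05), 1.20 for the 5 erythrocyte genes (1 higher at that p), -0.36 for choroid plexus (0) and -0.23 for the 6 Purkinje cell genes (2 lower). Their part in the nuclear result was not tested.

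**Figure D5:**
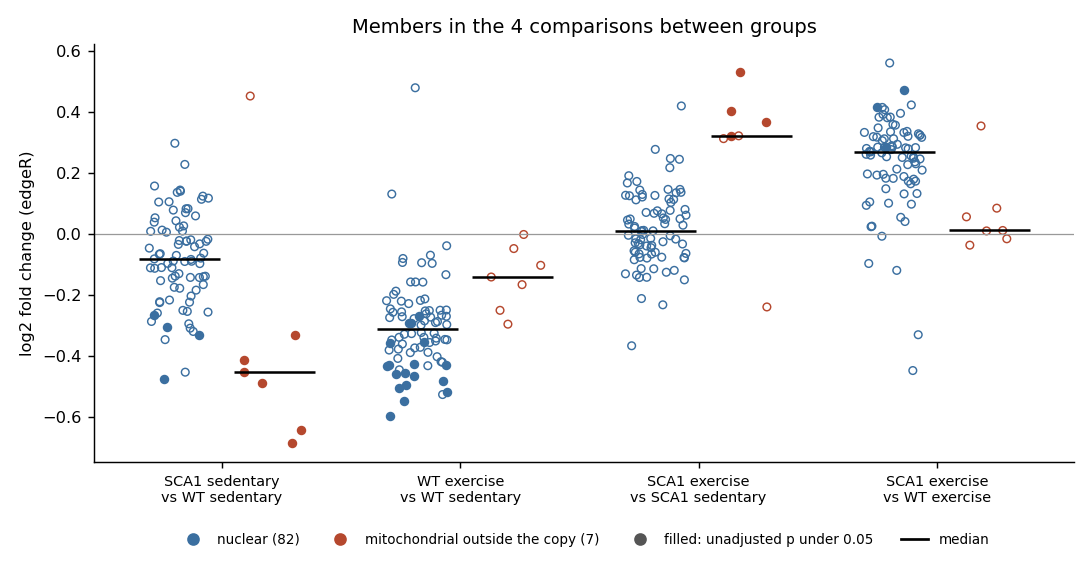
Log2 fold changes (edgeR) of 82 nuclear and 7 countable mitochondrial members in the 4 comparisons between groups, with filled points at an unadjusted p under 0.05 and bars at the medians. The nuclear medians run from -0.31 to 0.27 and the mitochondrial ones from -0.45 to 0.32, and the comparisons share groups.

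Averaged over both activity groups, SCA1 against WT mice gave a median of -0.20 for the countable mitochondrial and 0.09 for the nuclear members, the latter -0.05 without mice 16 and 55. edgeR called 0.118% of all genes and 0 members, and DESeq2 0.504% of all genes and 0 members. At an unadjusted p under 0.05, 5 members were lower and 0 higher, against 4.25% and 5.56% of all genes, a share of lower members close to that of all genes. The 5 were mt-Nd1 (-0.29, SE 0.10), mt-Nd2 (-0.34, SE 0.12), mt-Nd4 (-0.24, SE 0.10), mt-Cytb (-0.20) and mt-Atp6, and DESeq2 gave 6 lower and 1 higher. The count of lower members was 2 without WT exercise mouse 121, 3 without SCA1 sedentary mouse 194 or WT sedentary mouse 116, and 8 without SCA1 sedentary mouse 195. The count of higher members, 0 with all mice, was 12 without SCA1 sedentary mouse 195, more than the 8 lower ones. It was 6 beside 6 lower with the share of read pairs without a gene as a covariate. All genes were not counted in the same way in these alternative fits. The 6 Purkinje cell markers were all lower at an unadjusted p under 0.05 (median -0.51) and the granule cell markers had a median of -0.39, with 3 of 6 lower at that p. Their part in the mitochondrial result was not tested.

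Exercise against sedentary mice over both genotypes gave a median of -0.15 for the nuclear members (77 of 82 below 0) and 0.11 for the countable mitochondrial ones. The nuclear median was -0.04 without SCA1 sedentary mouse 16, -0.10 without WT sedentary mouse 116 or SCA1 exercise mouse 122, -0.08 without mice 16 and 55 and -0.04 with the share of read pairs without a gene as a covariate. No member was called by edgeR, where 0% of all genes were, or by DESeq2, where 0.0171% were. Only Ndufb7, an accessory subunit of complex I, was lower at an unadjusted p under 0.05 in edgeR (-0.20, SE 0.09), and 0 members were higher, against 1.39% and 2.16% of all genes. DESeq2 gave 2 lower members, beside which no share of all genes was taken. Ndufb7 measured 34.2, 27.5 and 30.2 CPM in WT sedentary, 24.6, 27.1 and 25.6 in WT exercise, 34.9, 34.3 and 28.1 in SCA1 sedentary and 30.6, 25.4 and 31.7 in SCA1 exercise mice. The SCA1 groups overlapped. The count of lower members was 0 without WT sedentary mouse 116 or 192, WT exercise mouse 121 or 201, SCA1 sedentary mouse 16 or SCA1 exercise mouse 122. Leaving out SCA1 sedentary mouse 194 gave 2 members, against 3 without SCA1 exercise mouse 198 and 5 without WT sedentary mouse 117. Without SCA1 exercise mouse 55 there were 10, and without SCA1 sedentary mouse 195 there were 26. For fits with a mouse left out, the share of all genes at that p was not counted. Choroid plexus markers had a median of 1.62, with 5 of 6 higher at an unadjusted p under 0.05. Purkinje cell markers had a median of 0.18, with 2 of 6 higher at that p. All 5 oligodendrocyte markers (median -0.29) and all 5 erythrocyte markers (-0.37) were below 0, with 0 at that p. The part of these cells in the nuclear and mitochondrial medians was not tested.

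The interaction term tests whether the exercise difference itself differed between SCA1 and WT mice. Its median was 0.34 for the nuclear members, 77 of 82 above 0, and 0.42 for the countable mitochondrial members, beside -0.01 for all genes. No member was called by edgeR, where 0% of all genes were, or by DESeq2, where 0.00570% were, so a difference between the genotypes in the exercise response was not established for any member. At an unadjusted p under 0.05, 19 members had a positive interaction and 0 a negative one, against 1.57% and 2.21% of all genes, and DESeq2 gave 19 and 0. mt-Nd1 had an interaction of 0.70 (SE 0.20, unadjusted p = 0.00451, adjusted p = 1.00 in edgeR). Ndufb1, an accessory subunit of complex I, measured 7.98, 6.28 and 7.28 CPM in WT sedentary, 4.95, 4.38 and 5.86 in WT exercise, 5.97, 5.10 and 4.67 in SCA1 sedentary and 7.38, 5.17 and 8.53 in SCA1 exercise mice. Its interaction was 0.92 (SE 0.30): the WT groups did not overlap and the SCA1 groups did. The count of 19 was 7 without WT sedentary mouse 116, 9 without WT exercise mouse 197 or 201, 10 without SCA1 exercise mouse 55, 62 without SCA1 sedentary mouse 16 and 55 without mice 16 and 55. For DESeq2 and for fits with mice left out, the share of all genes at that p was not counted. Their counts therefore cannot be read as particular to the members. With the share of read pairs without a gene as a covariate the nuclear median was 0.17. Purkinje cell markers had a median interaction of 0.56, with 5 of 6 at an unadjusted p under 0.05, and choroid plexus markers -1.92, with 2 of 6 lower at that p. Their part in the members' interaction was not tested.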

How the data were processed

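The authors trimmed reads with fastp (0.24.0), checked them with FastQC and aligned them to GRCm39 with STAR (2.7.10a), whose raw gene counts were deposited per library (tools and versions from the submitters' processing notes). The deposited counts give unstranded, forward and reverse columns, and the reverse column was used, since the kit is directional. STAR counts only pairs that map to 1 place and 1 gene, which bears on genes with near-identical copies.

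Of 56941 gene IDs, 56323 matched GENCODE M39. edgeR (4.0.16, R 4.3.3) filterByExpr kept 20341 genes, 93 of them members. One quasi-likelihood model with TMM scaling was fitted to 4 groups of 3 mice, with 7 contrasts and Benjamini-Hochberg adjustment over all genes tested. Calls needed an adjusted p under 0.05 together with a log2 fold change beyond 0.5 in either direction. The code was tested on simulated counts. DESeq2 (1.42.0), other scalings, filters, covariates and left-out mice were alternatives. Copies were found with BLAST+ (2.17.0; 98% identity, 100 bases or more). Named genes were the mitochondrial genes, core subunits, isoforms and, per comparison, up to 3 members by p in each direction with an unadjusted p under 0.05. Between pairs of groups, members picked by p also had to be without overlap, so their lack of overlap is no finding. The members and lists were chosen with earlier results of these data known. Members share mice and RNA, so their medians carry no test. The libraries held 20556802 to 32127508 counts.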

Additional observations from a re-analysis of the deposited data

Results flagged for a closer look

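mt-Co3, a complex IV subunit covered end to end by the chromosome 1 copy, had an interaction of genotype and exercise of 1.53 on the log2 scale. It measured 1.93, 1.75 and 1.62 CPM in WT sedentary and 1.18, 1.29 and 0.727 CPM in WT exercise mice, so all WT exercise mice lay lower. It measured 0.742, 0.722 and 1.06 CPM in SCA1 sedentary and 1.389, 1.501 and 1.5004 CPM in SCA1 exercise mice, all higher. Its unadjusted p was 0.00233 and its adjusted p 1.00 in edgeR. These CPM count the few read pairs that the copy did not make ambiguous.

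The forward-strand column, which no comparison used, held counts at genes of mitochondrial DNA. It took up to 33.3% of the read pairs at mt-Nd5 and up to 72.8% at mt-Nd6, where the opposite strand carries the long RNA of most other genes. In WT mice the forward share of mt-Nd5 averaged 17.8% when sedentary and 16.4% with exercise. In SCA1 mice the averages were 24.7% and 18.6%. For mt-Nd6 they were 69.01% and 71.6% in WT and 60.3% and 67.5% in SCA1 mice. SCA1 sedentary mouse 16 had the highest share at mt-Nd5 and the lowest, 47.0%, at mt-Nd6.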

How the results depend on the processing

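No paired analysis was possible because each mouse has a number of its own and the groups share none. Each group held 3 mice, and mice 16 and 55 stood apart. Within groups, nuclear sums ran in reverse order of the share of read pairs without a gene. The counts at an unadjusted p moved widely with single mice in all 7 comparisons. Shares of all genes beside these counts were taken only for the main fit and for the WT comparison with its 2 groups alone. Members called in SCA1 sedentary against WT sedentary mice numbered 0 in edgeR and 2 with DESeq2, which called 0.578% of all genes. With the share of read pairs without a gene as a covariate, added after the data were seen, edgeR called 2 members and 2.15% of all genes. Both times the members were mt-Nd1 and mt-Nd2 (with the covariate, adjusted p = 0.0178 and 0.0185 in edgeR). In WT exercise against WT sedentary mice 2 were called with the 2 groups only, beside 0.777% of all genes. There the residual spread was estimated from fewer mice, those of the 2 WT groups, and not from all 4 groups. In the other comparisons, and with any 1 mouse left out, 0 members were called. mt-Nd6 turned from 0.45 to -0.016 (SCA1 sedentary against WT sedentary) and from -0.24 to 0.23 (SCA1 exercise against SCA1 sedentary) without SCA1 sedentary mouse 16, over ranges of -0.016 to 0.68 and -0.48 to 0.23 with 1 mouse left out, and the latter was 0.061 with unstranded counts. The nuclear median of SCA1 exercise against SCA1 sedentary mice ran from -0.11 to 0.23 with 1 mouse left out (0.23 without mouse 16), while the median for sedentary SCA1 against sedentary WT mice ran from -0.27 to 0.03. The mitochondrial median of the interaction, over 11 tested genes, ran from 0.45 to 0.74 (0.74 without WT exercise mouse 121). Of 587 comparisons of single named members under alternatives, 584 kept their sign. Many of these members were picked by a small p in the main fit, and the alternatives reuse the same mice. Agreement in sign was therefore largely set in advance and is no independent support. The causes were not tested.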
